A study of Mus musculus with 6 samples.

Results

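The genes described here are Lin28b and 6 genes that accompany it in fetal haematopoiesis: Hmga2, Igf2bp1, Igf2bp2, Igf2bp3, Sox17 and Arid3a. Their transcripts were read by 12 of the 55681 probes of a dual-colour mouse oligonucleotide array, 2 probes each for Lin28b, Hmga2, Igf2bp2, Sox17 and Arid3a and 1 each for Igf2bp1 and Igf2bp3. Every probe annotated to these 7 genes was taken, in both channels of all 6 arrays. The set was put together with results of these arrays known: Lin28b was included as a gene that was higher in Bmi1 KO cells on all 6 arrays. Ratios of KO over WT are therefore given as a description, with no test. The tests compare the populations, by the levels of MPPs against HSCs within each genotype and by the difference between the KO effects. The choice used the sign of the Lin28b ratios, which does not fix these comparisons. They draw on the same arrays, and for Lin28b on the same signals and ratios, so they are not independent of the choice.

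The groups were Bmi1 KO MPPs, Bmi1 KO HSCs, WT MPPs and WT HSCs. HSCs are haematopoietic stem cells, which maintain blood formation for life, and MPPs are multipotent progenitors, which descend from them and no longer self-renew for long. All cells were sorted by flow cytometry from C57BL6 mice that were 2 to 3 months old. The labels name neither the surface markers of the sort nor the lesion of the Bmi1 allele, and they do not say whether animals were pooled. Each array carried 1 KO sample in Cy5 (red) and 1 WT sample in Cy3 (green) of the same population, with 3 arrays per population, called biological replicates in the labels.

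Bmi1 is a subunit of Polycomb repressive complex 1, which keeps developmental genes silent. Lin28b is an RNA-binding protein that is abundant in fetal and scarce in adult haematopoietic cells. It binds precursors of the let-7 microRNAs and blocks their maturation. Mature let-7 represses transcripts with sites for its seed, and Hmga2, Igf2bp1, Igf2bp2 and Igf2bp3 are textbook targets. Hmga2 encodes a chromatin protein that favours self-renewal of fetal stem cells, and the Igf2bp genes encode proteins that bind and stabilise messenger RNAs. Arid3a, a DNA-binding factor of B cells, is another let-7 target placed downstream of Lin28b in fetal-type B cell development. Sox17 encodes a transcription factor required by fetal and neonatal but not adult HSCs.

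The let-7 sequences are shown because a single seed joins the family to its targets. RefSeq (GRCm38.p6) listed 9 mature let-7 and miR-98 RNAs of the mouse, and all 9 shared 1 seed, bases 2 to 8, set in capitals in 4 examples that differ outside it:
let-7a: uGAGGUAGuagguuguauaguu
let-7b: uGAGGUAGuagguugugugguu
let-7g: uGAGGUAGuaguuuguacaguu
miR-98: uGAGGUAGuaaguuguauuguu
The DNA match to this seed, CTACCTC, was searched in the probe sequences, on the strand of the transcript only. It occurred in 204 of the 55681 probes (0.366%), and 1 of the 12 member probes held it. That probe reads Hmga2 at chr10:119798739-119798798 of mm9, minus strand. Its last 30 bases are printed with the match, probe bases 45 to 51 from the 5′ end, in capitals:
Hmga2 probe: atcaaaacacactaCTACCTCttaagtccc
MicroRNAs themselves were not measured in these samples.

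The Lin28b probe that carries the main observation is shown because the gene's other probe read differently. It lies at chr10:45140412-45140471 of mm9, on the minus strand, in coding sequence near the start of the transcript. Of its 3 reading frames, 1 has no stop codon:
Lin28b probe: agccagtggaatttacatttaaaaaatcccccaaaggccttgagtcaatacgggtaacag
The other Lin28b probe lies toward the transcript's 3′ end, at chr10:45096468-45096527.

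Of the 12 member probes, 8 were kept for the fits, because at least 1 of the 4 groups had all its 3 samples well above local background. They represent 5 genes: Lin28b with 1 probe, Igf2bp3 with 1, and Hmga2, Igf2bp2 and Arid3a with 2 each. The single Igf2bp1 probe, both Sox17 probes and the distal Lin28b probe did not pass. A probe that passed only through the group where it is bright had to differ between groups, so no count over the kept probes is offered as support. Median spot signals ranged from 379 to 581 in red and from 124 to 206 in green, and 78.8% to 83.9% of red and 72.5% to 82.2% of green spots were well above background. No member spot was saturated. MPP arrays 2 and 3 lay in another row of the slide than the other 4 arrays. No array had its dyes exchanged, so a dye effect of a probe cannot be told apart from genotype in a ratio, while it cancels in comparisons within a dye and in the difference between populations.

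Bmi1 itself was read first. Its brighter probe (chr2:18607531-18607590) gave log2 ratios of KO over WT of 0.23, -0.69 and 0.48 on MPP arrays 1, 2 and 3, and of -0.39, -2.42 and -0.50 on HSC arrays 1, 2 and 3. It was lower in KO on 4 of 6 arrays and well above background in every KO sample. The other Bmi1 probe ranged from -1.66 to 1.36. The deleted stretch of the KO allele is not named in the labels, so neither probe checks the genotype.

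On its coding probe, Lin28b was read clearly in every KO sample and hardly in WT samples. The log2 ratio of KO over WT on this probe was 3.65, 4.27 and 2.64 on MPP arrays 1, 2 and 3, and 0.80, 3.50 and 3.42 on HSC arrays 1, 2 and 3. All 6 ratios were above 0, and HSC array 1 was the lowest by far. The mean was 3.52 ± 0.82 in MPPs and 2.58 ± 1.54 in HSCs (SD, n = 3 each). The signal was well above background in 6 of 6 KO samples, against 1 of 6 WT samples, which was HSC 1. In MPPs the WT side therefore gives only a bound. Averaged over the 3 MPP arrays, the KO level was at least 11.5-fold higher, and MPP array 3, at 2.64, lay below that average. Without HSC array 1 the HSC mean was 3.46, without HSC array 2 it was 2.11 and without HSC array 3 it was 2.15. In the same contrast, 3.26% of all 29134 features were higher in KO on all 6 arrays and 3.3% were lower on all 6. Since Lin28b was included for this pattern, nothing is read from that share.

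The levels behind these ratios are log2 background-corrected signals, set to a common distribution across the 6 samples of a dye. In KO MPPs the Lin28b level was 10.79, 11.85 and 10.24 in replicates 1, 2 and 3, and in KO HSCs it was 9.37, 10.89 and 10.62. The 2 KO populations overlapped. In WT MPPs it was 6.04, 6.29 and 6.15, none of them well above background, and in WT HSCs it was 7.14, 6.05 and 5.98. WT HSC 1 was thus the 1 WT sample with a Lin28b signal on the coding probe, and its array was the one with the small ratio.

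The distal Lin28b probe did not show the same size of difference. Its log2 ratio was 0.71, 0.07 and 0.10 on MPP arrays and 0.37, -0.35 and 0.38 on HSC arrays 1, 2 and 3. It was well above background in 4 of 6 KO samples (MPP 1, MPP 3, HSC 1 and HSC 3), against 1 of 6 WT samples (HSC 2). In MPPs, where 2 of the 3 KO samples and no WT sample measured it, the mean ratio was 0.29 ± 0.36 (SD, n = 3). This mean is 1.22-fold and is not a minimum. Both probes were annotated to 1 RefSeq transcript, and why they differ was not tested.

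**Figure D1:**
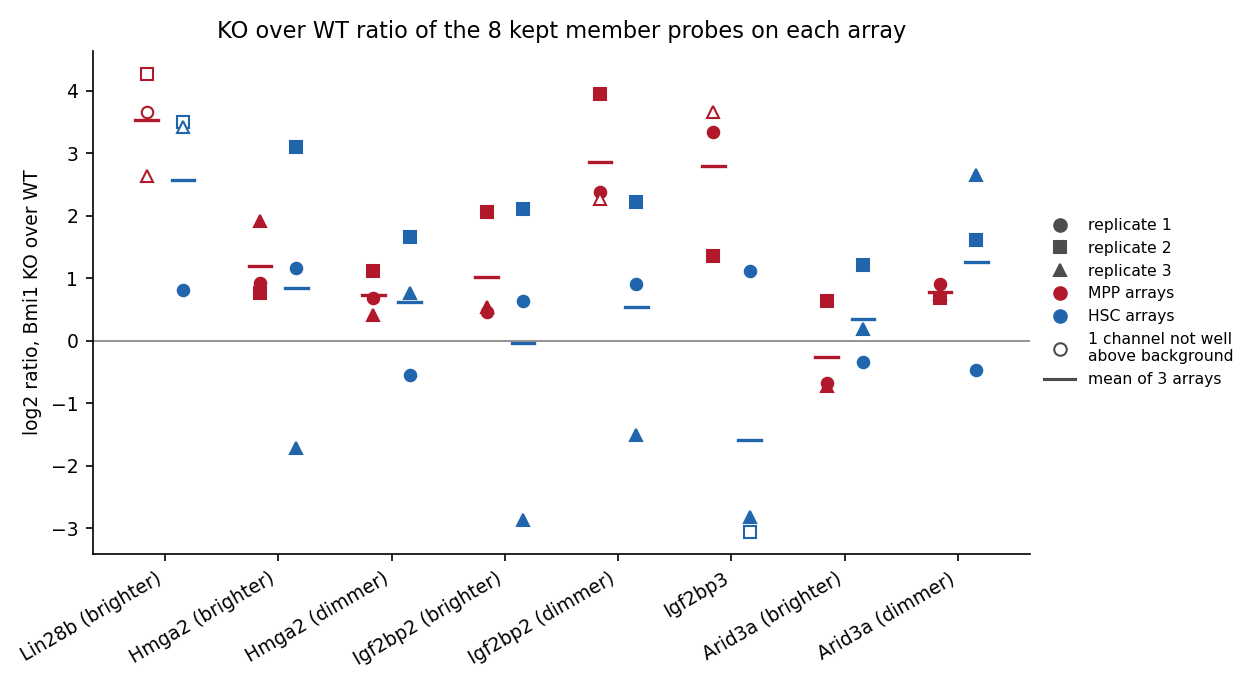
Log2 ratio of Bmi1 KO over WT (vertical axis) of each of the 8 kept member probes (horizontal axis) on the 3 MPP arrays (red) and the 3 HSC arrays (blue). Symbols mark the replicate, open symbols an array where 1 channel was not well above background, and bars the mean of 3 arrays; all 6 Lin28b ratios lie above 0, while HSC array 3 lies lowest for the brighter Hmga2 probe and both Igf2bp2 probes.

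Hmga2 was higher in KO on all 3 MPP arrays and split on HSC arrays. The brighter probe, which holds the printed let-7 match, gave log2 ratios of KO over WT of 0.92, 0.76 and 1.92 on MPP arrays 1, 2 and 3, and of 1.16, 3.09 and -1.72 on HSC arrays 1, 2 and 3. HSC array 3 thus pointed the other way, with a mean of 1.20 ± 0.63 in MPPs and 0.84 ± 2.42 in HSCs (SD, n = 3 each). The HSC mean was 2.13 without HSC array 3 and -0.28 without HSC array 2, so that 1 array decided its sign. The dimmer probe (chr10:119800621-119800680) gave 0.67, 1.12 and 0.41 on MPP arrays, and -0.55, 1.65 and 0.76 on HSC arrays. Its lowest HSC array was array 1, not array 3, so the 2 probes agreed in MPPs and disagreed on HSC arrays 1 and 3.

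The log2 level of Hmga2 on the brighter probe was 11.78, 11.71 and 12.19 in KO MPPs and 9.99, 11.79 and 10.22 in KO HSCs. In WT MPPs it was 9.50, 9.58 and 8.99, and in WT HSCs 7.30, 7.35 and 10.64. WT HSC 3 stood more than 3 log2 units above the other 2 WT HSC samples. All 12 samples were well above background on both Hmga2 probes.

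Igf2bp1 was not detected. Its 1 probe (chr11:95824526-95824585) was well above background in 0 of 6 KO and 0 of 6 WT samples, so no ratio is given.

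Igf2bp2 was higher in KO on all 3 MPP arrays on both probes. On the brighter probe (chr16:22059582-22059641, minus strand) the log2 ratio of KO over WT was 0.47, 2.06 and 0.54 on MPP arrays 1, 2 and 3, and 0.63, 2.11 and -2.87 on HSC arrays 1, 2 and 3. HSC array 3 again stood opposite to the other 5. The mean was 1.02 ± 0.90 in MPPs and -0.04 ± 2.56 in HSCs (SD, n = 3 each), and the HSC mean was 1.37 without array 3 and -1.12 without array 2. It was 0.47 with arrays centred on their median, so it has no settled sign. The dimmer probe (chr16:22059260-22059319) gave 2.38, 3.94 and 2.26 on MPP arrays, and 0.91, 2.22 and -1.51 on HSC arrays. Its signs matched those of the brighter probe on all 6 arrays, while its MPP mean of 2.86 ± 0.94 was larger (SD, n = 3). On the dimmer probe WT MPP 3 was not well above background, so the ratio of 2.26 lacks a measured WT side.

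Igf2bp3 was higher in KO on all 3 MPP arrays and lower in KO on 2 of 3 HSC arrays. Its 1 probe (chr6:49035710-49035769, minus strand) gave log2 ratios of KO over WT of 3.34, 1.36 and 3.66 on MPP arrays 1, 2 and 3, and of 1.11, -3.05 and -2.83 on HSC arrays 1, 2 and 3. Every MPP ratio was above every HSC ratio, as for 3.81% of all features. The mean was 2.79 ± 1.25 in MPPs and -1.59 ± 2.34 in HSCs (SD, n = 3 each), and the HSC mean without array 1 was -2.94. The probe was well above background in 5 of 6 KO samples, all but HSC 2, and in 5 of 6 WT samples, all but MPP 3.

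Sox17 was read only in KO MPPs 2 and 3, on 1 of its 2 probes. One of its probes (chr1:4481503-4481562) was well above background in KO MPP 2 and KO MPP 3, with log2 levels of 8.38 and 6.89, against 0 of 6 WT samples and 0 of 3 KO HSC samples. Its log2 ratio of KO over WT was 1.39 and 0.63 on MPP arrays 2 and 3. Samples of WT MPPs and KO HSCs were set no lower than the dimmest level well above background. The mean level of the 3 KO MPPs was then 1.37-fold that of WT MPPs and 1.49-fold that of KO HSCs. Only 2 of 3 KO MPP samples were measured, so these folds are not minima. KO MPP 1, at 6.02, lay among the KO HSCs, at 6.09, 6.04 and 5.94. The probe did not pass the filter, so the folds were not tested. The other Sox17 probe was well above background in none of the 12 samples. Endothelial cells also express Sox17: of 6 endothelial markers 5 were measured, all but Cdh5, and the sum of their levels was 7711 to 8947 in KO MPPs and 10057 to 11969 in KO HSCs. KO MPPs 2 and 3 were also the samples in the other row of the slide, and the KO samples highest in B lineage markers (141524 and 200179). The part of endothelial cells, of B lineage cells or of the slide row in the Sox17 signal was not tested.

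For Arid3a the 2 probes disagreed. The brighter one (chr10:79417377-79417436) gave log2 ratios of KO over WT of -0.68, 0.64 and -0.73 on MPP arrays 1, 2 and 3, and of -0.35, 1.20 and 0.18 on HSC arrays 1, 2 and 3, with means of -0.26 ± 0.77 in MPPs and 0.34 ± 0.79 in HSCs (SD, n = 3 each). Without HSC array 2 the HSC mean was -0.08. The dimmer one (chr10:79417698-79417757) gave 0.90, 0.68 and 0.74 on MPP arrays, and -0.47, 1.61 and 2.65 on HSC arrays. Its MPP arrays lay close together, with a mean of 0.77 ± 0.11 (SD, n = 3). Arid3a therefore has no single direction in MPPs. The sign of the brighter probe's MPP mean also turned, to 0.04, when arrays were centred on their median instead of by a loess curve. With that centring the median over all features shifted by 0.25 in MPPs and by 0.29 in HSCs.

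Among the 5 genes measured, on the brighter probe, 4, 5 and 4 were higher in KO on MPP arrays 1, 2 and 3, and 4, 4 and 2 on HSC arrays 1, 2 and 3. Of all features, between 49.1% and 51.4% were higher in KO on each array. Lin28b, Hmga2, Igf2bp2 and Igf2bp3 were higher in KO on all 3 MPP arrays, as were 14.8% of all features, and Lin28b was so on all 3 HSC arrays, as were 13.3%. With Lin28b chosen from this contrast and 8 probes of 5 genes in play, these counts describe the set and carry no test. Over all 29134 features, limma called 0 (0%) for KO over WT in MPPs and 0 (0%) in HSCs after Benjamini-Hochberg adjustment. The unadjusted p was under 0.05 for 1487 in MPPs and 2156 in HSCs, and the smallest adjusted p was 0.695 in MPPs and 0.57 in HSCs.

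Markers of other blood cells also differed between the samples. Of 9 erythroid markers 7 were measured. The sum of their linear levels was 19268, 62797 and 88889 in KO MPPs 1, 2 and 3 and 4903, 44998 and 14271 in KO HSCs 1, 2 and 3. In WT MPPs it was 9937, 2974 and 4047, and in WT HSCs 4351, 4375 and 47325. WT HSC 3 was thus the WT sample highest in erythroid markers, and the median ratio of the 7 markers on its array was -2.50. That is the array on which the brighter Hmga2 probe and both Igf2bp2 probes were lower in KO, while the dimmer Hmga2 probe, at 0.76, was higher. On HSC array 2 the median ratio of the 7 markers was 0.01, beside 3.09 for the brighter Hmga2 probe and 2.11 for the brighter Igf2bp2 probe. Of 13 B lineage markers 12 were measured, all but Ms4a1. Their summed level was 50326, 141524 and 200179 in KO MPPs and 55045, 52090 and 32216 in KO HSCs, against 16257, 12583 and 10143 in WT MPPs and 15729, 19965 and 17475 in WT HSCs. KO MPPs 2 and 3 stood highest among the KO samples. The median ratio of these 12 markers was 1.27, 3.14 and 3.49 on MPP arrays and 0.11, 0.07 and -0.23 on HSC arrays. Of 10 neutrophil and monocyte markers 8 were measured. Their summed level was 182254, 111728 and 129085 in KO MPPs 1, 2 and 3 and 52731, 43726 and 112972 in KO HSCs, against 42267, 39083 and 67296 in WT MPPs and 17801, 13830 and 39277 in WT HSCs. In both genotypes all MPP samples lay above HSC 1 and HSC 2, and HSC 3 lay just above MPP 2. The dyes were normalized separately, so sums compare samples of 1 genotype with each other and not KO with WT, for which the ratios serve. The part of these marker groups in the members' values was not tested, and in sorted bulk samples a changed share of cells and a changed amount of RNA per cell cannot be told apart.

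**Figure D2:**
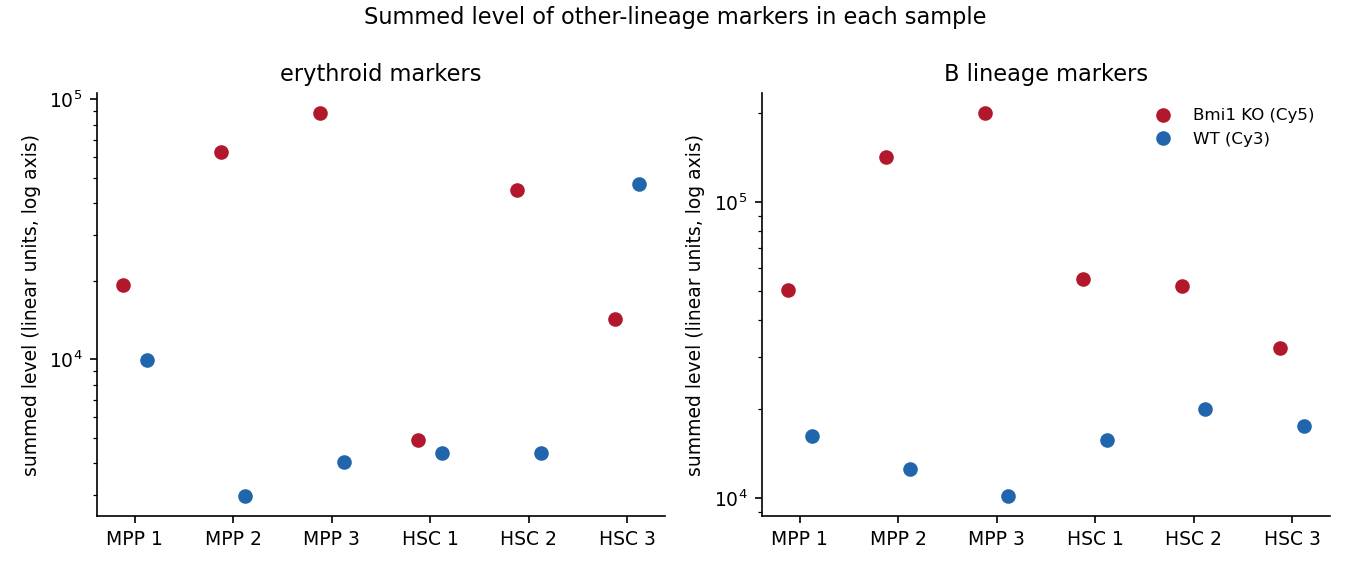
Summed linear level (log axis) of the 7 erythroid markers (left) and the 12 B lineage markers (right) in each sample, with Bmi1 KO in red and WT in blue, by array. WT HSC 3 is the WT sample highest in erythroid markers (47325), and KO MPPs 2 and 3 are the KO samples highest in B lineage markers (141524 and 200179); the dyes were normalized separately, so heights compare only within a colour.

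Levels of MPPs against HSCs were then compared within each genotype, where both groups carry the same dye. The sorted populations differed in their own markers: all 7 MPP markers were higher in MPPs in both genotypes, with median log2 differences of 2.92 in KO and 3.03 in WT. The receptor gene Flt3 and the lymphoid gene Dntt passed the test in both, and Satb1 passed in KO. Of the 12 HSC markers, 9 were lower in MPPs in KO and 12 in WT, with medians of -1.29 and -0.98. The platelet protein gene Vwf was the 1 of them that passed, in KO. Over all features, 0.525% passed in KO (153 of 29134) and 0.419% in WT (122 of 29134), by limma with Benjamini-Hochberg adjustment. The calls higher in MPPs were 0.419% in KO and 0.36% in WT, and the calls lower in MPPs were 0.106% in KO and 0.0584% in WT.

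Igf2bp2 was lower in WT MPPs than in WT HSCs. Its log2 level on the brighter probe was 7.28, 7.44 and 7.37 in WT MPPs, against 10.33, 10.84 and 12.16 in WT HSCs. All 3 WT MPP samples lay close together and far below the lowest WT HSC sample. The means were 7.36 ± 0.08 and 11.11 ± 0.95 (SD, n = 3 each), and the difference was -3.75 (SE 0.48, limma, adjusted p = 0.0483). This is 13.4-fold lower in MPPs. Of all features, 13.8% had every WT MPP sample below every WT HSC sample. The call is marginal: it was kept under 2 of 14 other settings, with adjusted p from 0.0388 to 0.555, and the sign was negative in all 14. Without HSC array 3, whose WT sample was high in erythroid markers, the difference was -3.22 (adjusted p = 0.0464). Within row 1 of the slide, which holds MPP 1 and all HSC arrays, the difference was -3.83. It rests on 1 MPP array, and its adjusted p of 0.555 in limma takes that lone array to vary like the others. The dimmer Igf2bp2 probe read 6.84, 6.41 and 6.19 (not well above background) in WT MPPs, against 9.78, 7.18 and 11.51 in WT HSCs. Its groups did not overlap either, but its difference of -3.01 (SE 1.04) did not pass (limma adjusted p = 0.305, with each probe as its own feature).

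In KO samples the same gene did not pass. Its log2 level was 9.07, 10.72 and 9.25 in KO MPPs, against 12.44, 14.47 and 10.64 in KO HSCs. KO MPP 2 lay just above KO HSC 3, so the groups overlapped. The difference was -2.84 (SE 0.97, limma adjusted p = 0.339). On the dimmer probe the KO levels were 10.60, 11.62 and 9.88 in MPPs, against 12.22, 10.75 and 11.33 in HSCs, a difference of -0.73 (SE 0.56, adjusted p = 0.638).

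Igf2bp3 showed the opposite order in KO cells. Its log2 level was 11.60, 11.32 and 11.43 in KO MPPs, against 9.45, 6.32 and 7.35 in KO HSCs. Every KO MPP sample was above every KO HSC sample, as for 8.62% of all features, and the KO MPP samples lay within 0.3 log2 units of each other. The means were 11.45 ± 0.14 and 7.71 ± 1.59 (SD, n = 3 each). KO HSC 2 was not well above background, so the HSC mean rests on 2 measured samples of 3. The difference of 3.74 (SE 0.75) did not pass (limma adjusted p = 0.127). It passed without HSC array 1, where it was 4.61 (adjusted p = 0.0249), and in none of the other 13 settings (adjusted p up to 0.887). Within row 1 of the slide, with 1 MPP array, it was 3.89. In WT samples the level was 6.83, 8.69 and 6.39 in MPPs, against 6.93, 8.58 and 8.91 in HSCs. These groups overlapped, and the difference was -0.84 (SE 0.77, limma adjusted p = 0.623).

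For the other 3 genes no difference between populations passed. Hmga2 was 1.22 higher in MPPs than in HSCs in KO (SE 0.50, limma adjusted p = 0.409) and 0.93 higher in WT (SE 0.92, adjusted p = 0.648). Its dimmer probe gave 1.34 in KO (SE 0.55, adjusted p = 0.421) and 1.09 in WT (SE 0.31, adjusted p = 0.26). On that probe every WT MPP sample, at 7.65, 8.22 and 8.07, was above every WT HSC sample, at 7.30, 6.88 and 6.51, as for 8.25% of all features on their brighter probes. Both Hmga2 probes thus had higher means in MPPs in both genotypes, within the spread that the test allows.

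Lin28b was 0.67 higher in MPPs in KO (SE 0.56, limma adjusted p = 0.644). In WT it was above background in 0 of 3 MPP and 1 of 3 HSC samples. With neither group measured throughout, no fold is given for WT. Arid3a was 0.33 higher in MPPs in KO (SE 0.44, adjusted p = 0.78), and without HSC array 3 this was -0.06. In WT it was 0.85 higher (SE 0.44, adjusted p = 0.406).

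**Figure D3:**
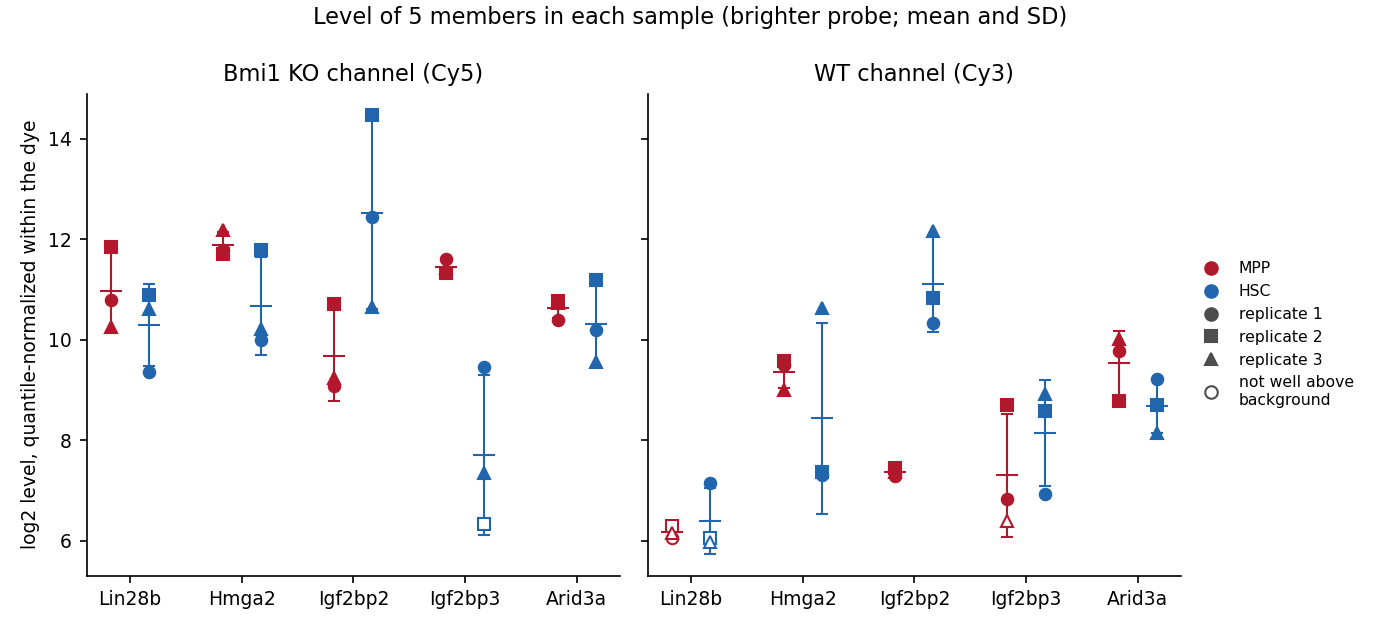
Log2 level (vertical axis, quantile-normalized within the dye) of 5 genes in each sample, with Bmi1 KO samples on the left and WT samples on the right, MPPs in red and HSCs in blue. Horizontal lines with bars are the mean and SD of 3 samples and open symbols are not well above background; Igf2bp2 is lower in all WT MPP samples than in WT HSC samples, and Igf2bp3 is higher in all KO MPP samples than in KO HSC samples.

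The KO effect was compared between the populations as the mean ratio in MPPs minus that in HSCs. None of the 29134 features passed (0%, limma, 1176 at an unadjusted p under 0.05), and the smallest adjusted p was 0.964. Among the members Igf2bp3 had the largest difference, 4.38 (SE 1.24, unadjusted p = 0.0111, adjusted p = 0.964). All its MPP ratios were above all its HSC ratios, as for 3.81% of features. The difference was 0.95 for Lin28b (SE 0.85), 1.07 for Igf2bp2 (SE 1.27), 0.35 for Hmga2 (SE 1.18) and -0.60 for Arid3a (SE 0.58), with adjusted p of 0.964 or above in limma. The Lin28b value was 0.06 without HSC array 1, and the WT side of its ratios was not well above background on 5 of the 6 arrays. Without HSC array 3 the sign turned for Igf2bp2, to -0.35, and for Hmga2, to -0.93.

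The machinery around Lin28b was covered by 4 lists of genes. They hold the factors that make, degrade or use let-7, the other let-7 targets, the paralogues of the members, and genes of fetal stem cells and fetal growth. Counting each gene once, 49 genes were measured, and 0 of them passed in any of the 5 comparisons (limma, adjusted over all features). At an unadjusted p under 0.05 there were 7 for MPPs against HSCs in KO (14.3%, beside 12.1% of all features), 11 in WT (22.4%, beside 15.2%) and 3 for the difference of KO effects (6.12%, beside 4.04%). For KO over WT there were 2 in MPPs and 1 in HSCs (4.08% and 2.04%, beside 5.1% and 7.4%).

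All 16 genes of Lin28 and let-7 processing were measured. The mean ratio of KO over WT was above 0 for 6 in MPPs and 7 in HSCs, with median log2 ratios of -0.10 and -0.19, beside 0.01 and 0.00 over all features. The paralogue Lin28a was higher in KO on 1 of 6 arrays, with ratios from -0.59 to 0.08. Trim71, a ubiquitin ligase that is itself a let-7 target, was the 1 gene of this list higher in KO on all 6 arrays. Of all features, 3.26% were so, and Trim71 was named for that sign, so nothing is read from it. Its ratios ran from 0.03 to 1.78, with a mean of 0.72. Between populations the 3 smallest p in KO were those of Ago2, Ago3 and Ago4, whose proteins carry microRNAs. The difference of MPPs from HSCs was -1.15 for Ago2 (adjusted p = 0.152), -1.07 for Ago3 (0.422) and 0.83 for Ago4 (0.435), so they had no common sign. The remaining Argonaute gene of the list, Ago1, had -0.15. In WT it was -1.20 for Tarbp2, a partner of Dicer, 1.30 for Dgcr8, a partner of Drosha, and 1.27 for Dis3l2, the nuclease that degrades tailed let-7 precursors (adjusted p from 0.272 to 0.277). For the difference of KO effects the smallest p were those of Zcchc6, a terminal uridylyltransferase (0.91), Ago2 (-1.10) and Tarbp2 (0.96), all with an adjusted p of 0.964.

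Of 26 other let-7 targets, 22 were measured, all but E2f2, Nr6a1, Thbs1 and Acvr1c. The mean ratio of KO over WT was above 0 for 13 in MPPs and 14 in HSCs, with medians of 0.17 and 0.05. Trim71, which stands on this list too, was again the 1 gene higher in KO on all 6 arrays, beside 3.26% of features. The difference of MPPs from HSCs in KO was 2.14 for the cell cycle kinase gene Cdk6 (adjusted p = 0.21), 0.92 for Myc and -1.89 for Mycn (both 0.247). In WT it was 2.60 for Cdk6 (0.18), -1.71 for Irs2, an adaptor of insulin signalling (0.114), and -1.43 for Insr, the insulin receptor gene (0.228). For the difference of KO effects the smallest p belonged to Irs2 (1.17), Fndc3b (-2.17) and Hmga1 (0.90), each with an adjusted p of 0.964.

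Of 6 paralogues of the members, 5 were measured, all but Sox18. The mean ratio of KO over WT was above 0 for 4 in MPPs and 3 in HSCs, with medians of 0.14 and 0.05. Hmga1, the paralogue of Hmga2, had a difference of MPPs from HSCs of 0.90 in KO (adjusted p = 0.431). Arid3c and Sox7 had -0.55 and -0.42 in KO, and -0.46 and -0.56 in WT. Arid3b had -0.46 in WT. For the difference of KO effects, Arid3b had 0.22 and Lin28a had 0.15, with adjusted p of 0.977 and 0.98.

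Of 12 genes of fetal HSCs and fetal growth, 11 were measured, all but Cdh5. The mean ratio of KO over WT was above 0 for 7 in MPPs and 5 in HSCs, with medians of 0.09 and -0.04. The embryonic globin gene Hbb-bh1 and the imprinted growth regulator gene Plagl1 were lower in KO on all 6 arrays, as were 3.3% of features. Their mean ratios were -0.37 and -0.35. They were named for that shared sign, so nothing is read from it. Hbb-bh1 was dim, well above background in 5 of 6 KO and 5 of 6 WT samples, with ratios from -0.91 to -0.04. Igf2, whose transcript gave the Igf2bp family its name, had a difference of MPPs from HSCs of -2.42 in KO (adjusted p = 0.469) and -2.52 in WT (0.271). The imprinted RNA H19 had -1.54 in KO (0.357) and -2.24 in WT (0.249). Cd93, a surface receptor, had 0.87 in KO (0.436) and 1.58 in WT (0.189). For the difference of KO effects the smallest p belonged to Cd93 (-0.85), the embryonic globin gene Hbb-y (-1.31) and Itgam (0.52), each with an adjusted p of 0.964.

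**Figure D4:**
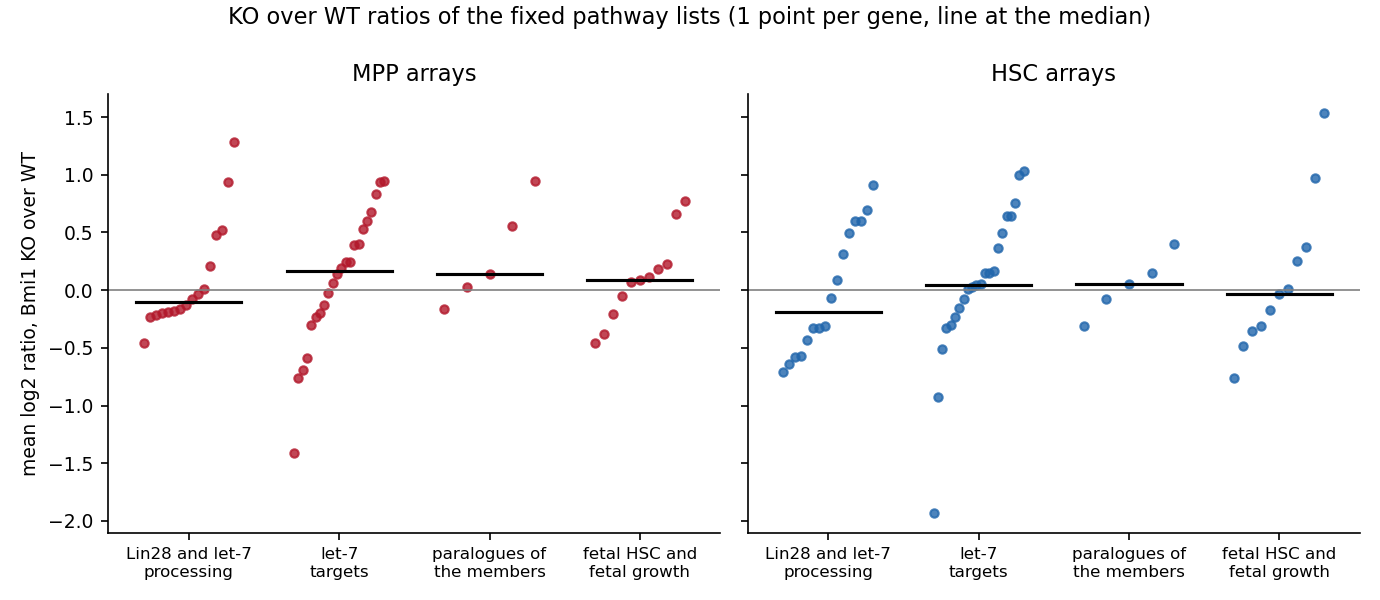
Mean log2 ratio of Bmi1 KO over WT (vertical axis, mean of 3 arrays) of each measured gene of the 4 lists (horizontal axis), on MPP arrays (left) and HSC arrays (right). Black lines are list medians, which lie between -0.19 and 0.17, beside 0.01 in MPPs and 0.00 in HSCs over all features.

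Likeness to Lin28b was described by correlation. Over the 6 arrays, Pearson's r of the KO level with that of Lin28b was 0.54 for Hmga2, 0.34 for Arid3a, 0.11 for Igf2bp3 and -0.11 for Igf2bp2. For the ratio of KO over WT it was 0.44 for Arid3a, 0.09 for Igf2bp2, -0.12 for Hmga2 and -0.15 for Igf2bp3. These are descriptions over 6 points that share 1 slide, too few to say whether a member follows Lin28b, and the Lin28b ratio is the value for which that gene was included. Genes most like Lin28b in KO level included Hnrnpa0 (0.996), Olfr315 (0.987), Ube2d2a (0.983) and Itpk1 (0.981). By the ratio they were Olfr398 (0.997), Olfr1182 (0.983), Hmg20b (0.981), Serinc4 (0.981) and Egf (0.981). An r of 0.9 or more was reached by 239 features (0.82%) for the level and by 146 (0.501%) for the ratio.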

How the data were processed

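RNA of 6 Bmi1 KO and 6 WT samples was measured on 6 dual-colour Agilent arrays of 1 slide, from 10 µg of total RNA each per the labels. Per the file headers, the deposited intensity of each spot and its background came from version 10.7.3.1 of Agilent Feature Extraction, whereas 8.5.1.1 stands in the submitters' processing notes, a discrepancy that the files do not resolve. The deposited log10 ratio, red over green, is the authors' processed value and served as an alternative. The deposited series-wide list of log10 ratios equalled it at all 62976 spots of each array, within the sixth decimal. The other deposited columns used were 0 or 1 marks of spots well above background, saturated or outlying.

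Mean intensities were corrected with normexp (offset 50), and log2 ratios were loess-normalized within arrays (limma 3.58.1, R 4.3.3, jsonlite 2.0.0, and data.table in version 1.17.8). Control spots had no weight. For levels, each dye was quantile-normalized over the 6 arrays. Probes well above background on all 3 arrays of a group were kept (44640 of 55681), and the brightest probe stood for each gene (29134 features). All 6 arrays entered each limma fit (lmFit, eBayes; a mean for each population), two-sided, Benjamini-Hochberg over all features, threshold 0.05. These p-values measure the spread between these samples, and the number of arrays limits their precision. The procedure was checked on simulated data.

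The members, lists and tests were chosen with earlier results of these data known. All members were named. Of each list, genes that passed were named, otherwise the 3 with the smallest p, and for KO over WT up to 3 with 1 sign on all arrays. Of the HSC and MPP markers, those that passed were named. The 5 genes most correlated with Lin28b were taken for each measure. A few genes that these rules select are not reported here. Alternatives changed the background correction, scaling, filter, probe choice, row of the slide, replicate block and arrays used. Coordinates are those in the files, on mm9.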

Additional observations from a re-analysis of the deposited data

How the results depend on the processing

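In WT, 122 features passed for MPPs against HSCs. This count was 51 with no filter on dim probes, 0 with the row of the slide as a block, 0 with the replicate number as a replicate block, and between 0 and 121 when 1 array was left out (0 without MPP 3, 7 without MPP 1, 2 without HSC 1, 65 without HSC 2 and 47 without HSC 3). In KO, 153 passed, with 16 under the row block, 37 under the replicate block, and between 58 and 155 with 1 array left out (67 without MPP 1, 73 without MPP 2, 58 without MPP 3, 93 without HSC 1 and 70 without HSC 2). For the difference of KO effects and for KO over WT the count was 0 under every alternative run. Median centring moved the median difference of all features by 0.11 in WT, and the processed signal moved it by 0.11 in KO. Fewer arrays or an added block leave fewer degrees of freedom. The labels number the replicates of both populations alike, but no animal or day ties them. Deviations of same-numbered samples correlated at 0.16, 0.04 and 0.13 in WT and at 0.04, 0.09 and 0.00 in KO. Differently numbered samples correlated at -0.17 to 0.04 in WT and at -0.10 to 0.08 in KO. These values do not settle whether the numbers are pairs, and the main fits did not pair them. Under the replicate block the adjusted p of Igf2bp2 in WT was 0.191.

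Leaving out 1 array turned the sign of 4 tested differences, none of which had passed. Lin28b in WT ranged from -0.44 to 0.15, Arid3a in KO from -0.055 to 0.76, and the difference of KO effects from -0.93 to 1.48 for Hmga2 and from -0.35 to 2.14 for Igf2bp2. Among the untested ratios of KO over WT, the HSC mean also turned sign for Hmga2 (-0.28 to 2.13), Igf2bp2 (-1.12 to 1.37) and Arid3a (-0.08 to 0.69). The cause was not tested. With the deposited log ratio, which has no normexp offset, the mean Lin28b ratio was 6.77 in MPPs and 4.99 in HSCs. With the mean of its probes, Igf2bp2 had a ratio of 1.94 in MPPs. Taking each probe as its own feature was added after seeing the data, and the adjusted p of Igf2bp2 in WT was then 0.0599.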
